A study of Mus musculus with 7 samples.

Results

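The 10 genes examined here, Lgr5, Lgr4, Procr, Prom1, Aldh1a1, Aldh1a3, Cd44, Itgb3, Kit and Bmi1, are used as markers of mammary stem and progenitor cells. Each gene was represented by the accessible chromatin regions whose midpoint lay nearer to its transcription start site (TSS) than to that of any other protein-coding gene, in the GENCODE annotation of GRCm38. These genes held 122 of 119215 regions. Chromatin accessibility had been measured by ATAC-seq, in which a transposase inserts sequencing adapters into open DNA, in spontaneous tumours of MMTV-PyMT; Dll1-mCherry mice on the C57BL/6 background. All samples carried both transgenes: the MMTV promoter, active in mammary epithelium, drives the polyoma middle T oncoprotein, and mCherry, carried on a bacterial artificial chromosome, reports the Notch ligand gene Dll1. Per the labels, CD45, CD31 and Ter119 positive cells were removed by sorting before mCherry+ cells (Dll1+, 3 samples) and mCherry− cells (Dll1−, 4 samples) were collected from 4 tumours, 3 of which gave both. The age of the animals and any treatment are not given in the labels. Because each group was deposited as a single pooled peak list, there is no spread between replicates, and every difference below compares 2 lists and carries no p-value.

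In the mammary gland, stem and progenitor cells renew the basal and luminal layers of the epithelium. Lgr4 and Lgr5 are receptors of R-spondins, which strengthen Wnt signalling. Procr, Prom1, Cd44, Itgb3 and Kit encode surface proteins by which such cells are sorted, Aldh1a1 and Aldh1a3 encode the aldehyde dehydrogenases that underlie the ALDH activity assay, and Bmi1 encodes a Polycomb protein that sustains self-renewal. Open chromatin at the promoter or at distal regions of a gene marks where transcription factors can bind, and it is not a measure of the gene's transcript.

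Rows of both lists that overlapped or touched were merged into 1 region, which was called shared when both lists held it and otherwise Dll1+ only or Dll1− only. Strength was the fold enrichment of reads over local background at the strongest summit of the region, expressed as its percentile among all rows of the same list. A shared region was called higher in a population when its percentiles differed by at least 20 points. Distances run from the nearest TSS of the gene to the midpoint of the region.

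The lists differed in depth. A typical genomic position carried 3.74 reads in Dll1+ cells and 7.20 in Dll1− cells (the genome-wide background, recovered from the deposited values), so a weak region could be called more easily in Dll1− cells. The label of epithelial cells was checked at promoters. A row lay over the TSS of 4 of 4 epithelial genes (Epcam, Cdh1, Krt8, Krt18) in each list, against 60.3% (Dll1+) and 62.8% (Dll1−) of all protein-coding genes. Of 4 immune genes, 0 had a row in the Dll1+ list and 1 (Csf1r, percentile 76.0) had one in the Dll1− list, while the defining gene Ptprc, which encodes CD45, had none in either. Endothelial and fibroblast genes each had 1 of 4 in both lists (Kdr and Pdgfra), with no row at Pecam1 or Col1a1. In the Dll1+ and Dll1− lists Kdr stood at percentiles 65.5 and 74.7 and Pdgfra at 67.4 and 78.6, within the range of the epithelial promoters (55.7 to 92.9 and 63.3 to 95.1). Whether other cell types contribute to the member regions was not tested.

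The summit sequences of 9 regions are printed because these regions were among those that differed most between the lists at their gene. They are 201 bases of the plus strand of GRCm38, centred on the summit. Capitals mark an exact match, on either strand, to one of 7 sequences searched: AP-1 (TGACTCA), RBPJ (GTGGGAA), TCF/LEF (CTTTGAT), RUNX (TGTGGTT), TEAD (ACATTCC), FOX (TGTTTAC) and GRHL (AACCGGTT). None of these sequences overlaps another in the windows shown. The first 5 were stronger in, or present only in, the Dll1− list.
Procr, 4.8 kb downstream, Dll1− only, chr2:155755823-155756023: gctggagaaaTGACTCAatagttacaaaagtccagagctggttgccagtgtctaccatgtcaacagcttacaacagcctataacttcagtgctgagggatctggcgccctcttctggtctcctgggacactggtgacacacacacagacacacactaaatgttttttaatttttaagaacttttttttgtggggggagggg
Lgr4, 35.5 kb downstream, higher in Dll1−, chr2:109953065-109953265: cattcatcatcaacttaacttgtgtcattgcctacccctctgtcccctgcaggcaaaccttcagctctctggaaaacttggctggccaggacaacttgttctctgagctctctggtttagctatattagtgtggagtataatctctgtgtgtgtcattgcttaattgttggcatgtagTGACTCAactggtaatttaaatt
Kit, 74.0 kb upstream, Dll1− only, chr5:75500759-75500959: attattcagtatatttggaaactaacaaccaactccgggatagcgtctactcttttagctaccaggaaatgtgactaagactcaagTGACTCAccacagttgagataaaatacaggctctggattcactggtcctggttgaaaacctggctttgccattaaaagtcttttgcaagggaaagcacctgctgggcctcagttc
Kit, 90.4 kb upstream, higher in Dll1−, chr5:75484438-75484638: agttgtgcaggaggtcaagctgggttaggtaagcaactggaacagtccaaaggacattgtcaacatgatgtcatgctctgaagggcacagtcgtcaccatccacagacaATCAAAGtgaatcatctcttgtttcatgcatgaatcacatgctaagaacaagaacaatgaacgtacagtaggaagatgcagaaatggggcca
Cd44, 35.4 kb upstream, higher in Dll1−, chr2:102937023-102937223: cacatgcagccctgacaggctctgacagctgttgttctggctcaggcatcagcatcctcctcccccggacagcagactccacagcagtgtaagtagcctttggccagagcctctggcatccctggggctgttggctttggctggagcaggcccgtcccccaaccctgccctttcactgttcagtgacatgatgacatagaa
The next 4 were stronger in, or present only in, the Dll1+ list.
Aldh1a1, 47.4 kb downstream, higher in Dll1+, chr19:20649210-20649410: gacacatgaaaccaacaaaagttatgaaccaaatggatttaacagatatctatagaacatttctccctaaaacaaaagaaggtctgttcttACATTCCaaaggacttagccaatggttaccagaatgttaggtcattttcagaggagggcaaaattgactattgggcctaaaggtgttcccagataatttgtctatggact
Itgb3, 7.0 kb upstream, higher in Dll1+, chr11:104600900-104601100: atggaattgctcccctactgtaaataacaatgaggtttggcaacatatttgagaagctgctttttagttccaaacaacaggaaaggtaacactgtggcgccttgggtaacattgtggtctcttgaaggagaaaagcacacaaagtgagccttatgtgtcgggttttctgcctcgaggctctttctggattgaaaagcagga
Cd44, 59.9 kb downstream, Dll1+ only, chr2:102841320-102841520: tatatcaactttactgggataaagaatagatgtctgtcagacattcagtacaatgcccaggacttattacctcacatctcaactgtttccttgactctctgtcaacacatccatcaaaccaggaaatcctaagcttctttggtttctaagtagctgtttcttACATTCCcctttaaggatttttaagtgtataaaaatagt
Kit, 54.6 kb upstream, Dll1+ only, chr5:75520257-75520457: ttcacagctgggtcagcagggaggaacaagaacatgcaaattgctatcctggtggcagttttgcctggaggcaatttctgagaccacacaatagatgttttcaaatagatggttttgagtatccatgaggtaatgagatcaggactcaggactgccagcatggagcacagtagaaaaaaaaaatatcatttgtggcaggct
The Procr, Lgr4 and first Kit windows hold the AP-1 sequence, the second Kit window holds TCF/LEF, and the Aldh1a1 window and the Cd44 window at 59.9 kb hold TEAD. A match describes the letters only and does not show that a factor was bound.

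Most of the accessible chromatin around these genes was present in both populations. Of the 122 regions, 90 (73.8%, 95% Wilson interval 65.3 to 80.8%) were shared, 11 (9.02%, interval 5.11 to 15.4%) were Dll1+ only and 21 (17.2%, interval 11.5 to 24.9%) were Dll1− only. Over all regions, 66.4% were shared, 9.01% were Dll1+ only and 24.6% were Dll1− only. At these settings the Dll1+ only share of the members was close to the background, and their Dll1− only share was lower than the background, which still lay inside the interval. The first statement depended on the settings: among rows at or above the median fold enrichment of their list, 14 of 84 member regions (16.7%) were Dll1+ only, against 9.44% over all regions. The intervals cover counting error only, since neighbouring regions are not replicates and, without molecular identifiers, reads may be copies of one molecule. Kit and Cd44 had the most regions, 35 and 24 of the 122, and held 10 of the 11 Dll1+ only regions and 11 of the 21 Dll1− only regions. They stand against a median of 3 per protein-coding gene (interquartile range 1 to 7).

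**Figure D1:**
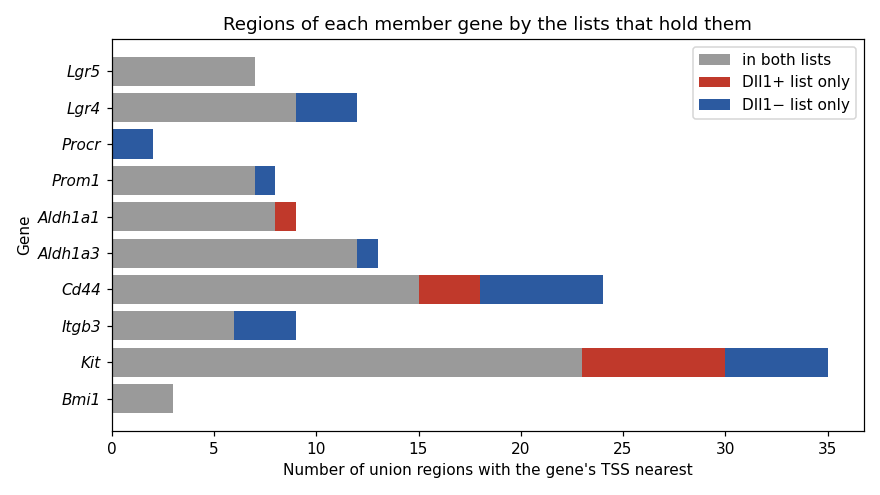
Number of union regions (x axis) assigned to each member gene (y axis), with grey for regions in both lists, red for the Dll1+ list only and blue for the Dll1− list only. Kit has 7 regions in the Dll1+ list only, Cd44 has 3 and Aldh1a1 has 1, and both regions of Procr are in the Dll1− list only.

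The R-spondin receptor gene Lgr5 (chr10:115450311-115587780, minus strand) had 7 regions, and all were shared. Under a reciprocal overlap of at least 50%, Lgr5 had 8, with 1 Dll1+ only and 1 Dll1− only (12.5% each, against 12.8% and 28% over all regions). Its strongest region, 29.9 kb upstream in intergenic DNA (chr10:115617538-115617842), had a fold enrichment of 11.8 in Dll1+ cells and 12.3 in Dll1− cells, at percentiles 85.1 and 88.5. The region over its first exon stood at percentile 66.4 in Dll1+ and 73.4 in Dll1− cells. The differences at Lgr5 ran from 11.1 points lower in Dll1+ cells, in the first intron, to 10.5 points higher, 7.7 kb downstream. No Lgr5 region was called in either direction.

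Its paralogue Lgr4 (chr2:109917647-110014257, plus strand) had 12 regions, of which 9 were shared and 3 were Dll1− only. The region over its TSS, in the 5′ UTR, was among the strongest of all member regions and hardly differed, with a fold enrichment of 19.3 and 791 reads at the summit in Dll1+ cells and 19.4 and 1102 reads in Dll1− cells. The local background there exceeded the genome-wide one 10.7 times for Dll1+ and 7.75 times for Dll1− cells. The region 13.3 kb upstream, in an intron of Platr8, stood at percentiles 96.2 and 97.4. Differences were found deep in the Lgr4 gene body. At 33.6 kb and 42.8 kb downstream, intronic regions were higher in Dll1+ cells, by 20.3 and 28.6 points, but both fell under the threshold when ranked on −log10 p (13.3 and 18.9 points), and the former also when ranked among regions (18.9). At 35.5 kb and 41.7 kb they were higher in Dll1− cells, by 37.7 and 21.3 points. The opposite regions at 41.7 and 42.8 kb had 56 and 74 reads in Dll1+ cells but 191 and 79 reads in Dll1− cells. Both regions higher in Dll1− cells held the AP-1 sequence within 100 bp of the summit, as did 1 of the 3 Dll1− only regions, at 41.2 kb, but not those at 37.6 and 49.4 kb. Neither region higher in Dll1+ cells held it.

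Procr (chr2:155751117-155755471, plus strand), which encodes the endothelial protein C receptor, had 2 regions, and both were Dll1− only. The promoter region (chr2:155750953-155751324) was weak, with a fold enrichment of 3.66, percentile 30.5 and 29 reads at the summit. Scaled to the depth of the Dll1+ list, this equals 15.1 reads. The lowest number of reads in a Dll1+ row at the genome-wide background was 9, and the 5th percentile was 13. The region 4.8 kb downstream, beyond the end of the gene (chr2:155755745-155756098), was stronger, with a fold enrichment of 7.20, percentile 68.8 and 58 reads, or 30.1 at the depth of the Dll1+ list. Both Procr regions held the AP-1 sequence.

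Prom1 (chr5:43993620-44102032, minus strand), which encodes the membrane glycoprotein CD133, had 7 shared regions and 1 Dll1− only region. Its strongest region lay in an intron 25.1 kb downstream, at percentiles 88.9 in Dll1+ and 86.4 in Dll1− cells. The region over its TSS stood at percentiles 49.7 and 55.0, with 88 and 132 reads, and the Dll1− only region, 46.6 kb upstream, stood at percentile 39.6. The region 1.9 kb upstream of the TSS was higher in Dll1− cells by 33.3 points, at percentiles 7.95 and 41.2. The region 49.6 kb upstream (chr5:44151260-44152020) was higher in Dll1+ cells by 19.4 points, just under the threshold, and had the largest ratio of reads among the shared regions, 113 in Dll1+ against 76 in Dll1− cells. The local background differed here too. From 49.6 to 45.2 kb upstream it exceeded the genome-wide one 3.84 to 3.94 times for Dll1+ and 2.16 to 2.24 times for Dll1− cells, and fold enrichments in this interval are relative to it.

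The aldehyde dehydrogenase gene Aldh1a1 (chr19:20492715-20643465, plus strand) had 8 shared regions, 1 Dll1+ only region and no Dll1− only region. Its strongest region (chr19:20557167-20557919), in an intron, stood at percentiles 91.8 in Dll1+ and 92.5 in Dll1− cells. A promoter region was present in both lists, at percentiles 79.3 and 76.1. The region 47.4 kb downstream of its nearest start site, in intergenic DNA beyond the gene (chr19:20649103-20649535), was higher in Dll1+ cells by 42.1 points, the widest difference in that direction, with 40 reads in Dll1+ and 29 reads in Dll1− cells. The intronic region at 37.5 kb was higher in Dll1− cells by 29.5 points, with 27 and 83 reads, and held RBPJ and TEAD sequences. The single Dll1+ only region, 43.0 kb upstream, had 21 reads and percentile 38.6.

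Aldh1a3 (chr7:66390890-66427517, minus strand) had 12 shared regions and 1 Dll1− only region, the latter at percentile 15.9. Its promoter region (chr7:66427011-66428037) stood at percentile 94.3 in Dll1+ and 79.4 in Dll1− cells, with fold enrichments of 16.2 and 9.30. It had 111 reads in Dll1+ cells against 81 in the deeper Dll1− list. The intronic region 8.6 kb downstream had fold enrichments of 17.3 and 12.3, with 123 and 105 reads, while the strongest distal region of the Dll1− list, 50.2 kb upstream, stood at percentiles 82.5 and 90.0 with 51 and 158 reads. The intergenic region 65.3 kb upstream was higher in Dll1+ cells by 32.6 points, at percentiles 65.2 and 32.6. No Aldh1a3 region was higher in Dll1− cells by the threshold, and the widest difference in that direction was 18.2 points, 19.6 kb upstream.

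Cd44 (chr2:102811141-102901665, minus strand), which encodes the hyaluronan receptor, had 15 shared, 3 Dll1+ only and 6 Dll1− only regions. The intronic region 22.6 kb downstream (chr2:102878466-102879087) was the strongest of all member regions in the Dll1+ list, with a fold enrichment of 21.9, percentile 99.0 and 356 reads, against 19.1, 97.7 and 474 reads in the Dll1− list. The region at the TSS was lower in Dll1+ cells, at percentiles 79.6 and 90.6. The widest differences towards Dll1− cells among all member regions were at Cd44. The region 35.4 kb upstream stood at percentile 19.3 in Dll1+ and 70.6 in Dll1− cells, with 15 and 62 reads, and the intronic region at 27.9 kb at 26.1 and 70.9, with 17 and 78 reads. In the same intronic stretch, regions at 36.2 and 42.8 kb were higher in Dll1+ cells, by 28.6 and 30.3 points. The Dll1+ only region at 59.9 kb (chr2:102841251-102841620) was the strongest of its class, with a fold enrichment of 9.29, percentile 75.7 and 43 reads. The 6 Dll1− only regions of Cd44 stood between percentiles 25.4 and 49.5.

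Itgb3 (chr11:104608000-104670476, plus strand), which encodes integrin β3 (CD61), had 6 shared and 3 Dll1− only regions, and its shared regions differed in both directions. Upstream, the region at 7.0 kb was higher in Dll1+ cells by 38.1 points, with 46 reads in Dll1+ and 31 in Dll1− cells. The neighbouring region at 8.5 kb was 15.6 points higher, with 91 and 80 reads. In the introns, the region at 23.5 kb was higher in Dll1− cells by 33.9 points, with 27 and 114 reads, and all 3 Dll1− only regions lay there, the strongest at percentile 55.5 and the others at 11.7 and 20.0 kb. The intronic region at 16.9 kb was 15.8 points higher in Dll1+ cells. The promoter region was 12.6 points lower in Dll1+ cells, at percentiles 70.7 and 83.3.

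Kit (chr5:75574916-75656722, plus strand), which encodes the receptor of stem cell factor, had 23 shared, 7 Dll1+ only and 5 Dll1− only regions. Of its 35 regions, 26 were over 50 kb away from the TSS and 19 over 100 kb. The region over the TSS hardly differed, at percentiles 82.3 and 83.6 with 148 and 194 reads. The strongest region lay 104.8 kb upstream (chr5:75469811-75470496), with fold enrichments of 17.9 and 20.2 and 300 and 446 reads. From 116.4 to 104.8 kb upstream the local background exceeded the genome-wide one 3.89 to 4.25 times for Dll1+ and 2.29 to 2.94 times for Dll1− cells. At the main settings the Dll1+ only regions made up 20.0% of the Kit regions, the highest share among the members and singled out after the values were seen, against 9.01% over all regions. Neighbouring regions are not independent, and no interval is given. The strongest of them lay 54.6 kb upstream (chr5:75520185-75520533), with a fold enrichment of 9.08, percentile 74.8 and 42 reads. Another 3 lay close together at 118.3, 122.3 and 124.5 kb downstream, with 39, 16 and 19 reads, beyond the end of the gene. The count changed with the settings, and the share stayed above that of all regions in each setting run. Kit did not keep the highest share among the members. At the median fold enrichment Aldh1a1 and Itgb3 (28.6% each) and Lgr4 (25%) exceeded it, and with equal numbers of rows Bmi1 did (33.3%, 1 of 3). A reciprocal overlap of at least 50% gave 11 Dll1+ only and 11 Dll1− only of 42 Kit regions (26.2% each, against 12.8% and 28% over all regions), and rows at or above the median fold enrichment gave 4 and 4 of 24 (16.7% each, against 9.44% and 21%). Within 50 kb of the TSS there were 3 Dll1+ only and 1 Dll1− only of 9 (33.3% and 11.1%, against 7.87% and 23.6%), and with the nearest TSS of any gene type 2 and 1 of 7 (28.6% and 14.3%, against 9.01% and 24.6%). No shared Kit region was higher in Dll1+ cells by the threshold, and the nearest to it, 133.5 kb upstream, reached 18.6 points. In the other direction, 4 Kit regions were higher in Dll1− cells: at 90.4 kb upstream by 42.0 points, at 14.8 kb downstream by 25.6, at 27.3 kb downstream by 24.6 and at 75.7 kb upstream by 20.7. In that order, the log2 ratios of Dll1+ to Dll1− summit reads, scaled for depth, were −0.77, −0.29, 0.12 and −0.15. The counting intervals of all but the first spanned 0. The Dll1− only region 74.0 kb upstream (chr5:75500720-75501121) stood at percentile 74.3 with 66 reads, the highest of that class.

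Bmi1 (chr2:18677018-18686629, plus strand) had 3 regions, and all were shared. The region over the TSS, in the 5′ UTR, stood at percentiles 54.2 in Dll1+ and 54.9 in Dll1− cells, with 185 and 248 reads. Its local background exceeded the genome-wide one 8.01 and 6.22 times, so its fold enrichment was modest for the number of reads. The other Bmi1 regions were weaker, at percentiles 1.85 and 7.95 in the first intron and 28.3 and 34.2 at 8.9 kb downstream. The strongest summits of the region at 8.9 kb lay 649 bp apart, so its percentiles describe different summits. Under the reciprocal overlap 1 of 4 Bmi1 regions was Dll1+ only and 1 Dll1− only (25% each, against 12.8% and 28% over all regions). With equal numbers of rows, 1 of 3 was Dll1+ only (33.3% against 10.2%).

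**Figure D2:**
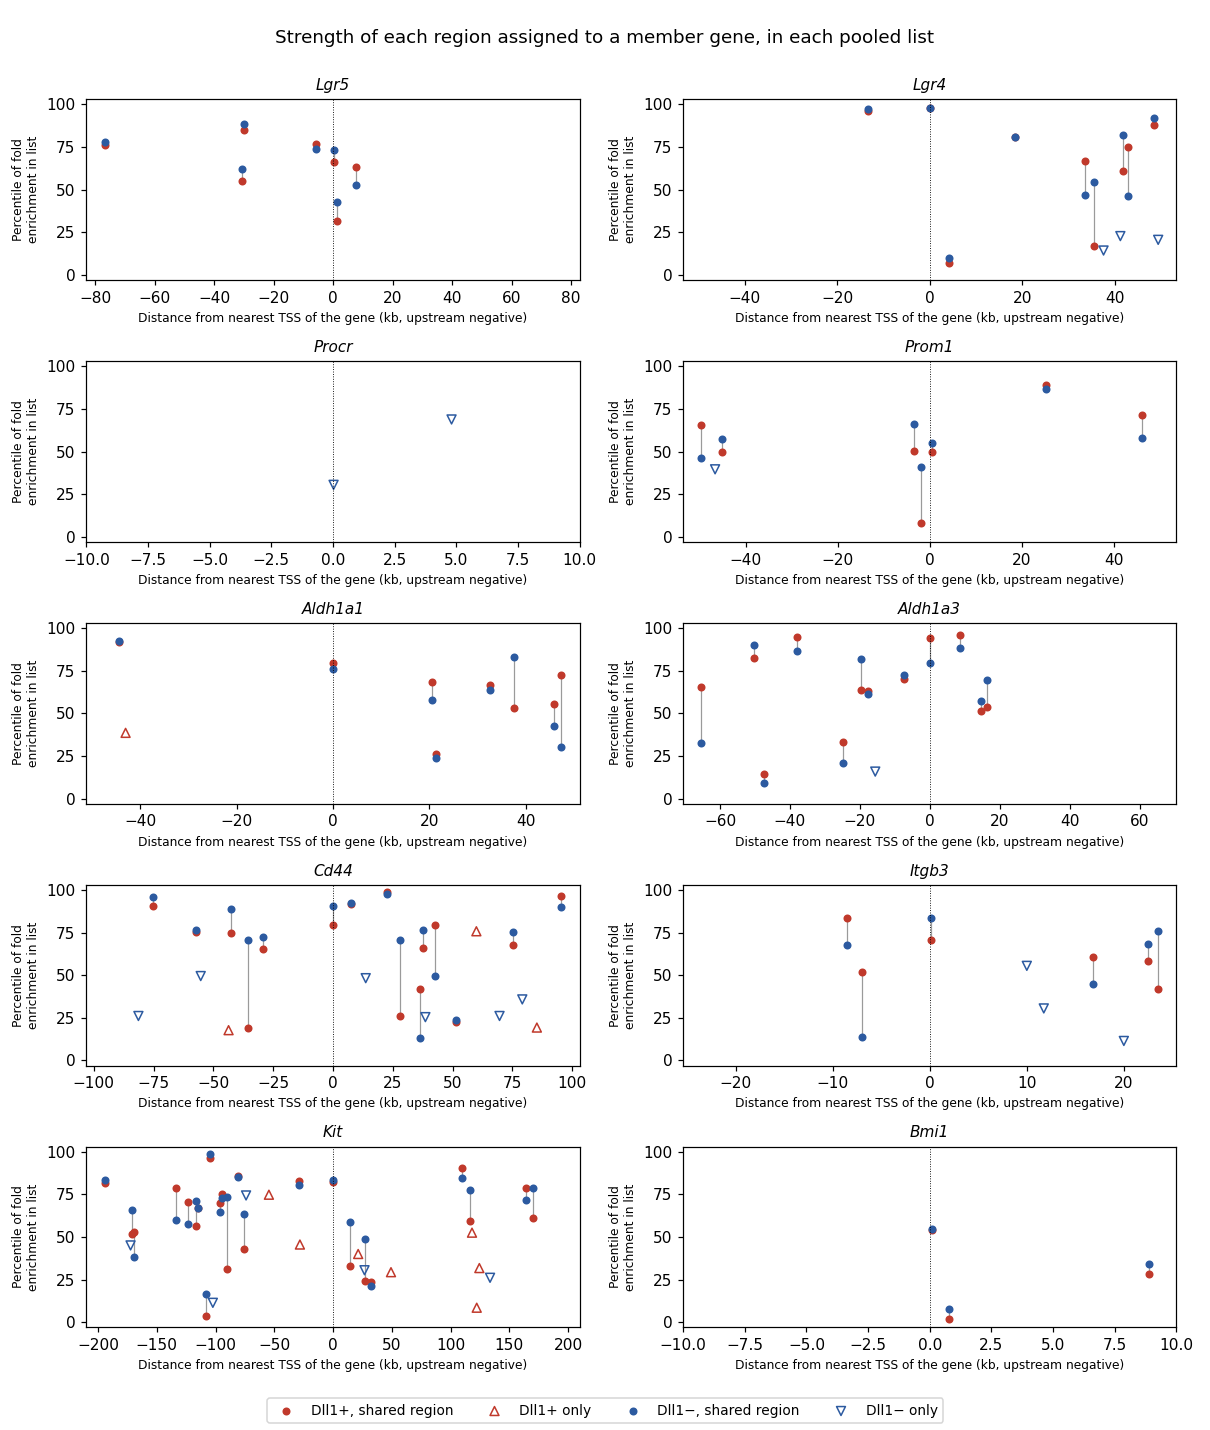
Percentile of fold enrichment within each list (y axis) against distance from the nearest TSS of the gene in kb (x axis, upstream negative), with 1 panel for each gene. Filled red and blue points joined by a grey line are the Dll1+ and Dll1− values of a shared region, and open triangles are regions in 1 list only. The points at the TSS of Lgr4, Kit and Bmi1 lie on each other, and the longest lines are at distal regions of Cd44, Kit and Aldh1a1.

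The strength of the shared regions was next compared over all members. The median difference in percentile, Dll1+ minus Dll1−, was −1.18 points over the members and −1.67 points over all shared regions. Of the 90 shared regions, 7 (7.78%) were higher in Dll1+ cells, against a background of 6.39%, and 11 (12.2%) were higher in Dll1− cells, against a background of 11.1%. Both shares lay close to the background. Within 50 kb of the TSS they were 9.38% (6 of 64, against 5.17%) and 14.1% (9 of 64, against 10.9%), further above it. The 7 belonged to Lgr4, Aldh1a1, Aldh1a3, Cd44 and Itgb3, and the 11 to Lgr4, Prom1, Aldh1a1, Cd44, Itgb3 and Kit. At Lgr4, Aldh1a1, Cd44 and Itgb3, regions of both directions were found at the same gene, which for Lgr4 no longer held when rows were ranked on −log10 p. Lgr5 and Bmi1 had no region called in either direction, and Procr had no shared region. The strongest summits lay within 100 bp of each other in all 18 called regions, so the differences compare nearby summits. They were farthest apart, 57 bp, at Cd44 35.4 kb upstream. Just inside the threshold were Lgr4 at 33.6 kb (20.3 points) and Kit at 75.7 kb upstream (20.7 points), and just outside was Prom1 at 49.6 kb upstream (19.4 points).

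**Figure D3:**
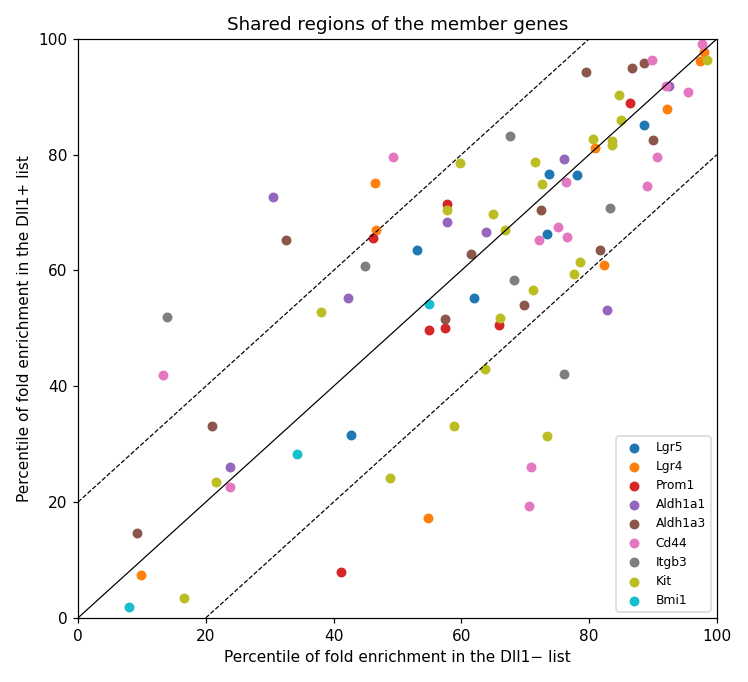
Percentile of fold enrichment in the Dll1+ list (y axis) against that in the Dll1− list (x axis) for the 90 shared regions, coloured by gene. The solid line marks equal percentiles and the dashed lines a difference of 20 points, beyond which lie 7 regions above and 11 below.

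Because fold enrichment depends on the local background, the reads at the summit were also compared after scaling the Dll1− reads by the ratio of the genome-wide backgrounds, 1.93. The median log2 ratio of Dll1+ to Dll1− reads was 0.35 over the 90 member regions and 0.24 over all shared regions, a difference of 0.11. Gene medians were highest at Prom1 (0.56), Bmi1 (0.52) and Kit (0.51). Their median differences in percentile were nevertheless negative, at −5.25, −5.98 and −1.28 points, against −1.67 over all shared regions. Aldh1a1 and Aldh1a3 followed at 0.38 each, then Lgr4 at 0.34 and Lgr5 at 0.22. Itgb3 (0.04) and Cd44 (−0.10) were the lowest. The ratios of regions of 1 gene overlapped those of the other genes, and the order is a description only. Relative to the median of all shared regions, 4 regions had at least 2 times more scaled reads in Dll1+ cells (4.44%, against a background of 3.23%). They were Prom1 at 49.6 kb upstream, with a log2 ratio before that median is taken off of 1.52 (95% counting interval 1.09 to 1.96), Itgb3 at 7.0 kb upstream with 1.51 (0.83 to 2.22), Aldh1a1 at 47.4 kb with 1.41 (0.68 to 2.15) and the Aldh1a3 promoter with 1.40 (0.97 to 1.83). In the other direction were 6 regions (6.67%, against a background of 3.72%). The largest was Cd44 at 27.9 kb, with −1.25 (−2.10 to −0.48), followed by Itgb3 at 23.5 kb with −1.13 and Cd44 at 35.4 kb upstream with −1.10. Lgr4 at 35.5 kb had −0.93, Lgr4 at 41.7 kb −0.82 and Kit at 90.4 kb upstream −0.77. The balance depended on that median. Without taking it off, these Lgr4 and Kit regions fell short of 2 times, and more regions passed towards Dll1+ than towards Dll1− cells. Those added were Aldh1a3 at 8.6 kb (1.17) and 65.3 kb upstream (1.13) and Itgb3 at 8.5 kb upstream (1.13). Kit at 109.5 kb downstream (1.17) and 114.9 kb upstream (1.04) were added too. The rank and the read ratio relative to that median differed in sign in 15 of the 90 regions.

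**Figure D4:**
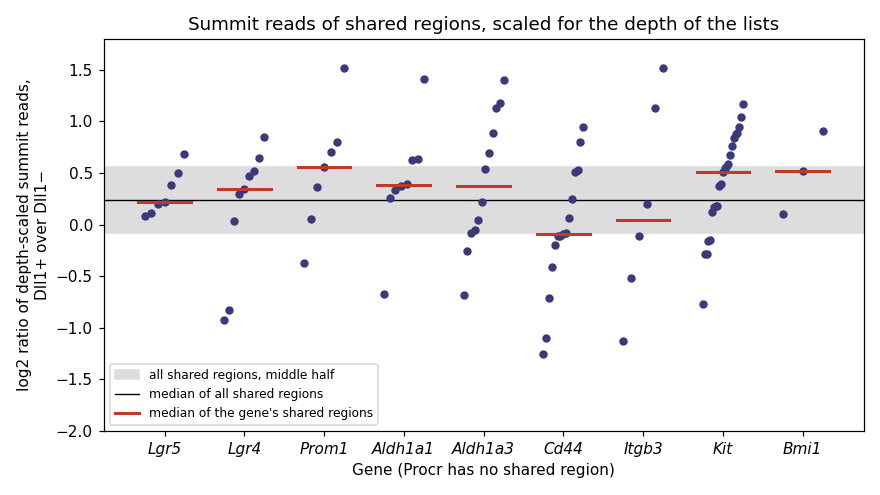
Log2 ratio of depth-scaled summit reads, Dll1+ over Dll1− (y axis), for each shared region of the genes on the x axis, with red bars for gene medians. The black line is the median of all shared regions (0.24) and the grey band their interquartile range (−0.08 to 0.56), and each gene median apart from that of Cd44 lies inside the band.

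The AP-1 sequence differed between the classes of member regions, as it did over all regions. Within 100 bp of the summit, it was present in 9 of the 21 Dll1− only regions (42.9%) and in 0 of the 11 Dll1+ only regions. It was present in 6 of the 11 shared regions higher in Dll1− cells (54.5%) and in 0 of the 7 higher in Dll1+ cells. Over all regions of the same classes the shares were 30.4%, 4.40%, 34.8% and 3.87%, so the members followed a pattern of the whole lists and do not support it independently. The regions with AP-1 among the Dll1− only class lay at Procr, Lgr4, Cd44, Itgb3 and Kit. The other sequences were rare among the members, and their classes are counts of a few regions. The RBPJ sequence, bound by the DNA-binding partner of Notch, was present in 7 of the 122 regions (5.74%, against 4.30% of all regions). Of these, 5 were shared, 2 were Dll1+ only (of 11, against 4.36% over all Dll1+ only regions), at 118.3 and 122.3 kb downstream of Kit, and 0 were Dll1− only (of 21, against 4.69%). FOX was present in 5 regions (4.10% against 3.73%): 2 shared, 0 Dll1+ only (against 5.91%) and 3 Dll1− only (14.3% against 3.19%). TEAD was present in 7 regions (5.74% against 5.07%): 4 shared, 1 Dll1+ only (9.09% against 6.66%) and 2 Dll1− only (9.52% against 4.72%). RUNX was present in 2 regions (1.64% against 5.06%), TCF/LEF in 1 (0.82% against 2.25%) and GRHL in 1 (0.82% against 0.27%), all of them shared.

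By the midpoint of the region, promoters held 5 of the member regions (4.10%, against 11.7% of all regions), introns 50 (41.0% against 46.9%) and intergenic DNA 58 (47.5% against 34.7%). Kit held 27 of the 58, and without Kit the intergenic share was 35.6% of 87 regions. The regions over the TSS of Lgr5, Lgr4, Prom1, Cd44, Kit and Bmi1 have midpoints in an exon, 5′ UTR or intron and are not counted as promoters. Within 50 kb of the TSS lay 82 regions (67.2%, against 68.4% of all).

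A further list of 28 genes used in the study of mammary stem and progenitor cells was described in the same way. It held 409 regions: 283 shared (69.2%), 27 Dll1+ only (6.60%, against 9.01% of all regions) and 99 Dll1− only (24.2% against 24.6%). Among the 28 genes, 20 (71.4%) had more Dll1− only than Dll1+ only regions, 2 had more Dll1+ only regions (Sox10 and Tnfrsf11a), and 6 had equal numbers. Over all 17373 protein-coding genes with a region, 51.7% had more Dll1− only and 11.3% more Dll1+ only regions. Genes were not matched for their number of regions, 409 in the 28 genes against a median of 3 per protein-coding gene. Equal numbers were held by 21.4% of the 28 genes and 37.0% of all genes, so the gene shares are not directly comparable. Among the 10 members, 6 had more Dll1− only regions, 2 (Kit and Aldh1a1) more Dll1+ only regions and 2 equal numbers. Kit had equal numbers under the reciprocal overlap and at the median fold enrichment, and Aldh1a1, with 1 Dll1+ only region, had 0 of either kind with the nearest TSS of any gene type. The median difference over the shared regions of the further list was −4.06 points, against −1.67 over all shared regions. At Axin2, a target and inhibitor of Wnt signalling, 7 of 12 regions were Dll1− only, 1 was Dll1+ only, and the 4 shared regions had a median difference of −25.0 points. Axin2 was named after the values were seen, and this median difference was the widest among the 28 genes. Ly6a, which encodes Sca-1, resembled Procr in having 2 regions, both Dll1− only. Sox4 had the most regions, 66, with 47 shared, 6 Dll1+ only and 13 Dll1− only.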

How the data were processed

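ATAC-seq libraries of 3 Dll1+ and 4 Dll1− samples were processed by the authors with the ENCODE ATAC-seq pipeline, in batches of replicates, and 1 optimal peak list for each group was deposited. The peak caller and its thresholds are not given in the sources used here. The deposited fold enrichment of each row is the ratio of summit reads to local background, and the deposited −log10 p-value comes from the authors' caller. The deposited score and −log10 q-value were not used. Labels name GRCm38 (mm10), and 0 rows ran past a chromosome end.

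From the rows, 119215 union regions were built and assigned to the nearest TSS of a protein-coding gene (GENCODE M21). Strength was the percentile of fold enrichment among all rows of a list. Summit reads and local background were recovered from fold enrichment, taken as reads plus 1 over background plus 1, and the Poisson p-value, to within 0.01 in −log10 p, for 132872 of 132872 Dll1+ rows and 148922 of 148923 Dll1− rows. Log2 ratios used the recovered reads with nothing added. The promoter class covered 1000 bp before and 100 bp after a TSS. Python 3.11.15, numpy 2.4.6, pandas 2.3.3, scipy 1.17.1, pysam 0.24.0 and matplotlib 3.10.9 were used, and the scripts were tested on simulated data. Sequences came from the GRCm38 RefSeq genome.

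The regions named were, for each gene, the region over or nearest its TSS, the strongest distal region of each list, the shared regions with the widest difference in each direction and the strongest region of each single-list class. The other regions named, such as the remaining called ones, were chosen after their values were seen. The members, the further list, the sequences searched and the alternatives were chosen with earlier results of these data known. The samples are pooled, so no test was made. The authors' per-sample read counts and their DESeq2 comparison were not analysed here. A marker list of one further cell type is not reported here.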

Additional observations from a re-analysis of the deposited data

How the results depend on the processing

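No paired analysis was possible because each deposited list combines all samples of 1 population. Leaving out each sample was not run for the same reason. The limit lies in the lists used, since 3 tumours gave both populations and the authors' per-sample read counts were not analysed here. A reciprocal overlap of at least 50% gave 22 Dll1+ only (15.8% of 139 member regions, against 12.8% over all regions) and 35 Dll1− only (25.2% against 28%). Rows at or above the median fold enrichment of their list gave 14 (16.7% of 84, against 9.44%) and 12 (14.3% against 21%). Within 50 kb of the TSS the numbers were 5 (6.1% of 82, against 7.87%) and 13 (15.9% against 23.6%), and with the nearest TSS of any gene type, 3 (5.26% of 57, against 9.01%) and 11 (19.3% against 24.6%). Equal numbers of rows gave 14 (11.5%, against 10.2%) and 21 (17.2% against 23%). The Dll1+ only share thus lay on either side of the background, for which the cause was not tested, and the Dll1− only share lay below it in each setting run. The nearest TSS of any gene type also left 4 shared regions higher in Dll1+ cells (9.3% of 43, against 6.39%) and 7 higher in Dll1− cells (16.3% against 11.1%), because fewer regions remain with the members. With Dll1− reads scaled to the depth of the Dll1+ list, and the lowest p-value of that list required, 11 and 21 remained the counts, and with the 5th percentile of its p-values, a setting added after the data had been seen, they were 14 (11.5%, against 10.9%) and 21 (17.2% against 21.4%). A difference of at least 10 points gave 19 regions higher in Dll1+ cells (21.1%, against 15.2% over all shared regions) and 24 in Dll1− cells (26.7% against 25.1%), and one of at least 30 points gave 4 (4.44% against 2.34%) and 6 (6.67% against 4.58%). Ranking among regions in place of rows gave 17 higher in Dll1− cells (18.9% against 15.5%), for which the cause was not tested. Scaling by the median of all shared regions moved the median log2 read ratio from 0.35 to 0.11, by construction.

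The median difference in percentile stayed negative under each alternative run, between −2.85 and −0.768. The median over all shared regions was negative in each of these settings too, between −3.7 and −1.65, so the sign is not particular to the members. With the nearest TSS of any gene type the members lay below all shared regions (−2.58 against −1.67), and in the other settings above them. The interval of the member median at the main settings, −4.75 to 1.29, spanned 0. Of the 18 called shared regions, 17 remained past the threshold when ranked among regions and 15 when ranked on −log10 p, and 0 changed direction. Those lost were Kit at 27.3 kb (−19.3 on −log10 p), Lgr4 at 42.8 kb (18.9 on −log10 p) and Lgr4 at 33.6 kb (13.3 on −log10 p, 18.9 among regions). The lower depth in Dll1+ cells limits what the absence of a row can show, and differences between the groups cannot be set against the spread between tumours.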
